A study of Drosophila melanogaster with 2 samples.

Results

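Of 13931 genes in the deposited table for indirect flight muscle (IFM), 6033 have a symbol made of CG and a number, the form a gene is given when it is first annotated; some also have other names in RefSeq. Of these numbered genes 13 were abundant in the control muscle, with at least 500 TPM (transcripts per 1000000 transcripts, a level that is corrected for transcript length). They were chosen by that control value among the 250 genes at this level, and the other abundant genes are 236 named genes and 1 without a symbol. The study compared *bs* KD flies, from the cross of *1151-Gal4* with the RNAi line *bs[KK108659]* (genotype *1151>bs[RNAi KK108659]*), with control flies from the cross of the same driver with *w1118* (genotype *1151/+*). *bs* encodes the *Drosophila* SRF ortholog, the driver acts in myoblasts, and the RNAi construct targets the *bs-RA* and *bs-RC* transcripts. There is 1 library per genotype, each from IFMs of 4 females aged 3 days and kept at 29°C, so no difference between the genotypes has a replicate check and none was tested. Because both groups carry the driver but only *bs* KD flies carry the RNAi insertion, the knockdown and the insertion itself cannot be told apart.

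The estimated reads sum to 19767477 in *bs* KD and 20955053 in the control. *bs* itself stood at 1.80 TPM in *bs* KD and 2.75 TPM in the control, from only 98.3 and 148.4 estimated reads. This value is for the whole gene and includes *bs-RB*, which the RNAi construct does not target. It is therefore no measure of the knockdown of *bs-RA* and *bs-RC*, for which the paper reported a large reduction in IFM by qPCR. All 7 flight muscle markers were detected, and they summed to 38860 TPM in *bs* KD and 60903 TPM in the control. The sum is lower through *Act88F*, the flight muscle actin (7471 TPM in *bs* KD and 33116 TPM in the control), and the other 6 markers summed to 31388 TPM in *bs* KD and 27787 TPM in the control. Of the markers of other cells, those for jump and tubular muscle summed to 72.6 and 23.7 TPM (3 of 4 detected), for fat body to 10.3 and 8.95 TPM (3 of 5), for gut to 8.90 and 3.31 TPM (5 of 5), for trachea to 8.76 and 38.4 TPM (5 of 5), for neurons to 1.93 and 4.07 TPM (1 of 5), for glia to 107.3 and 79.0 TPM (2 of 3) and for hemocytes to 3.71 and 3.93 TPM (1 of 4), again in *bs* KD and the control. The jump and tubular muscle sum is higher through *Act57B* (31.5 TPM in *bs* KD and 2.08 TPM in the control) and *TpnC41C* (21.3 and 1.96 TPM). *Act79B* of the same list was near the control (19.5 and 18.9 TPM), and *Act87E* was not detected. The fat body and glia sums follow 1 gene each, *Yp1* (9.31 TPM in *bs* KD and 4.35 TPM in the control) and *Gs2* (105.1 and 74.9 TPM). The other detected markers of these lists were lower in *bs* KD, with *Fbp1* at 0.222 and 1.96 TPM, *Lsp2* at 0.388 and 2.34 TPM and *moody* at 1.90 and 3.66 TPM, while the detected hemocyte marker *Ppn* was at 3.41 and 3.09 TPM, against the direction of its sum. The part of these other cells in the levels below was not tested. In bulk RNA, fewer cells of a type and less RNA per cell cannot be told apart.

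Flight muscle makes its ATP almost wholly in mitochondria. Pyruvate enters the mitochondrion through the mitochondrial pyruvate carrier, is turned into acetyl-CoA by the pyruvate dehydrogenase complex and is oxidised in the tricarboxylic acid (TCA) cycle, in which the 2-oxoglutarate dehydrogenase complex carries out a closely related reaction. The inner membrane that holds the respiratory chain is folded into cristae, whose necks are shaped by the MICOS complex. Of the 13 abundant numbered genes, several belong to these systems, while others, including the most abundant of them, have no role that is given here.

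The 13 genes together held 18232 TPM in *bs* KD and 23182 TPM in the control, or 1.82% and 2.32% of all TPM. The sign of that difference rests on 1 gene: without *CG15617* the sums were 13546 TPM in *bs* KD and 13171 TPM in the control. Of the 13 genes, 8 had a lower and 5 a higher TPM in *bs* KD. Each had at least 4013 estimated reads in each library. The exact 95% counting interval of the ratio excluded 1 for 11 of them and included it for *CG9399* and *CG17734*. These intervals hold for the TPM scale, cover counting error only and say nothing of variation between flies. They also leave out the choice of scale, which moved *CG9399* and *CG17734* to either side of the control.

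**Figure D1:**
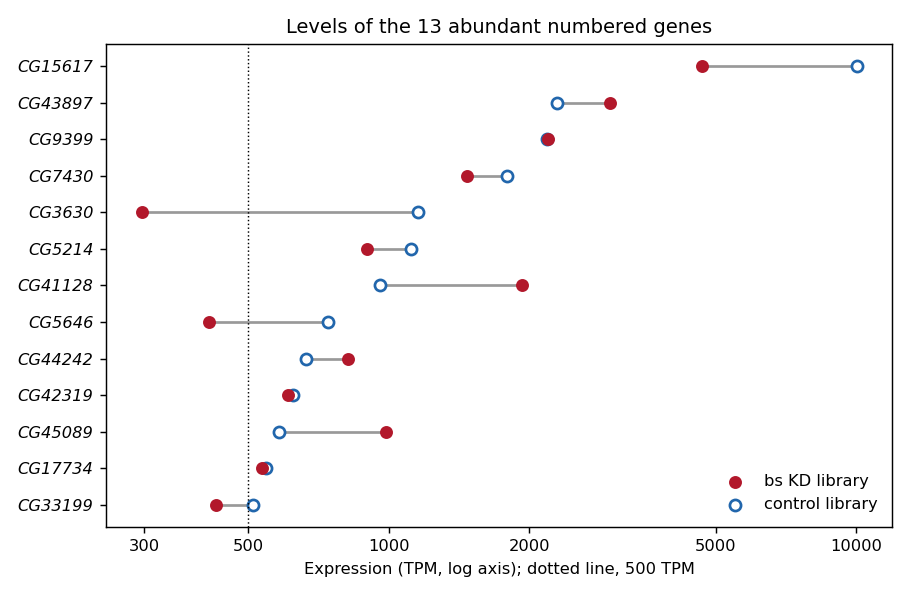
TPM of each of the 13 genes on a log axis, in the *bs* KD library (filled red) and the control library (open blue), ordered by control level. *CG15617* is at 4686 TPM in *bs* KD and 10011 TPM in the control, and *CG3630*, *CG5646* and *CG33199* are the 3 genes left of the dotted 500 TPM line in *bs* KD.

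The change of a gene is given as the log2 ratio of the TPM values, *bs* KD over control, with a pseudocount of 1 TPM. On this scale 2 of the 13 genes were lower by 2-fold or more, *CG15617* and *CG3630*, and 1, *CG41128*, was higher by 2-fold or more. Among all 6384 genes with at least 1 TPM in either library, 6.05% were lower and 9.38% higher by that size, and among the 236 named genes with at least 500 TPM in the control, 1.27% were lower and 0.424% higher. At 1.5-fold the 13 genes gave 3 lower and 2 higher, against 15.1% and 21.3% of all detected genes and 4.24% and 1.69% of the named abundant genes. The 2 higher genes were *CG41128* and *CG45089*. *CG45089* shares all its exonic bases with *ND-MNLL* (log2 change 0.73), which is among the named abundant genes higher by that size. This pair is thus counted on both sides of the comparison without being separate measurements. The median log2 change was −0.04 for the 13 genes (from −1.96 to 1.00), 0.04 for the named abundant genes and 0.07 for all detected genes. Because the genes were chosen on their control level, which is also the denominator of the change, none of these values is a test. The same choice made on the *bs* KD level also gives 13 genes, but with *CG34423*, *CG11413* and *CG13220* in place of *CG3630*, *CG5646* and *CG33199*, and a median of 0.30.

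**Figure D2:**
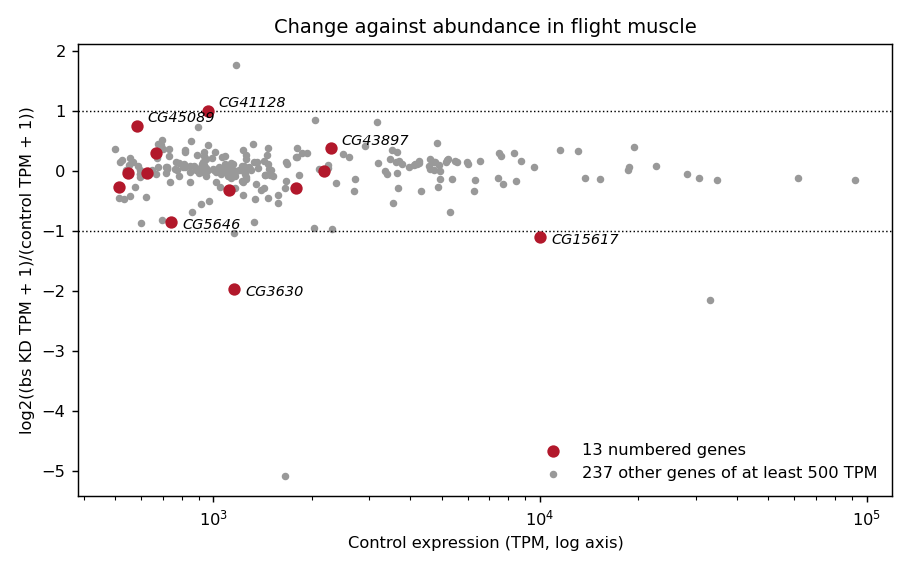
Log2 change (TPM + 1) against control TPM (log axis) for the 13 numbered genes (red) and the 237 other genes with at least 500 TPM in the control (grey), with dotted lines at 2-fold. *CG3630* and *CG15617* lie below the lower line, at −1.96 and −1.10, and *CG41128* lies on the upper line.

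*CG15617* (FBgn0034151) was the most abundant gene known by number, and no role is given for it here. Its position is 2R, 16745223 to 16746579, minus strand (coordinates of Release 6, here and below, from the BDGP6.54 annotation). It has 1 annotated transcript of 1298 bp that codes for 222 residues. It stood at 4686 TPM in *bs* KD and 10011 TPM in the control, from 102598 and 217686 estimated reads. This is 2.14-fold lower in *bs* KD, between 2.12 and 2.15 by counting error. Among all genes it ranked 45 in *bs* KD and 15 in the control. It held 25.7% of the TPM of the 13 genes in *bs* KD and 43.2% in the control, and its own difference of −5325 TPM is 5.47% of the summed difference over the 5024 genes with a lower value. The nearest gene, *Sfp53D*, named as a seminal fluid protein gene, lies 108 bp away on the same strand and shares no exonic base with it. *Sfp53D* had 57.1 TPM in *bs* KD and 124.1 TPM in the control, so that it stood at 46.0% of the control level and *CG15617* at 46.8%. Whether reads that run past the end of one gene enter the value of the other was not tested.

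*CG3630* (FBgn0023540) showed the largest fold difference of the 13 genes. It lies on the plus strand of the X chromosome from 2162196 to 2172281, with 4 annotated transcripts that code for 347 to 371 residues. It stood at 296.7 TPM in *bs* KD and 1158 TPM in the control (9488 and 36629 estimated reads), 3.90-fold lower in *bs* KD and between 3.81 and 3.99 by counting error. It thus ranked 299 in *bs* KD and 138 in the control. The gene 244 bp away on the same strand, *ND-B14.5A*, which encodes a subunit of respiratory complex I, was at nearly the same level in both libraries, 1093 TPM in *bs* KD and 1068 TPM in the control. The low value of *CG3630* in *bs* KD was therefore not shared by this neighbour.

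**Figure D3:**
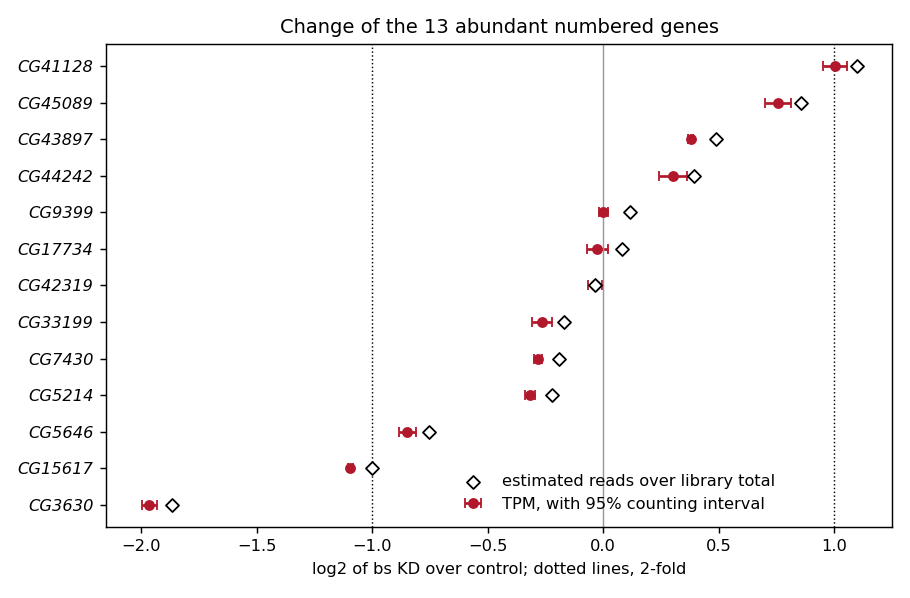
Log2 of *bs* KD over control for the 13 genes, ordered by change, from TPM with 95% counting intervals (red) and from estimated reads over the library total (open diamonds); dotted lines mark 2-fold. *CG3630* and *CG15617* are past 2-fold lower on both measures, and the interval of *CG41128* spans the 2-fold line.

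2 of the 13 genes code for subunits of dehydrogenase complexes. *CG7430* (FBgn0036762), which RefSeq also lists as E3, encodes dihydrolipoyl dehydrogenase, the subunit that the pyruvate and 2-oxoglutarate dehydrogenase complexes share. It lies on chromosome arm 3L from 17846916 to 17849601 (plus strand, 504 residues). It had 1472 TPM in *bs* KD and 1789 TPM in the control, which is 82.2% of the control level with an interval of the ratio from 0.813 to 0.832. *CG5214* (FBgn0037891), listed as alpha-KGDHC, encodes the E2 subunit of the 2-oxoglutarate dehydrogenase complex and lies on 3R from 11244302 to 11246862 (plus strand, 468 residues). It had 897.8 TPM in *bs* KD and 1118 TPM in the control, or 80.3% (ratio 0.791 to 0.816). Both genes were thus lower in *bs* KD by about the same share.

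The named subunits of the same complexes spread more widely. *Ogdh*, the E1 subunit beside *CG5214*, had 562.9 TPM in *bs* KD and 1155 TPM in the control (48.7%). *muc*, the E2 subunit of pyruvate dehydrogenase, had 1087 TPM in *bs* KD and 1579 TPM in the control (68.9%). The E1 genes *Pdhb* and *Pdha* were nearer the control, with 1180 TPM in *bs* KD and 1429 TPM in the control for *Pdhb* (82.6%) and 1440 and 1523 TPM for *Pdha* (94.5%). In the control, E3 was the most abundant of these 6 transcripts per length and *CG5214* the least. In *bs* KD *Ogdh* was the least abundant.

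**Figure D4:**
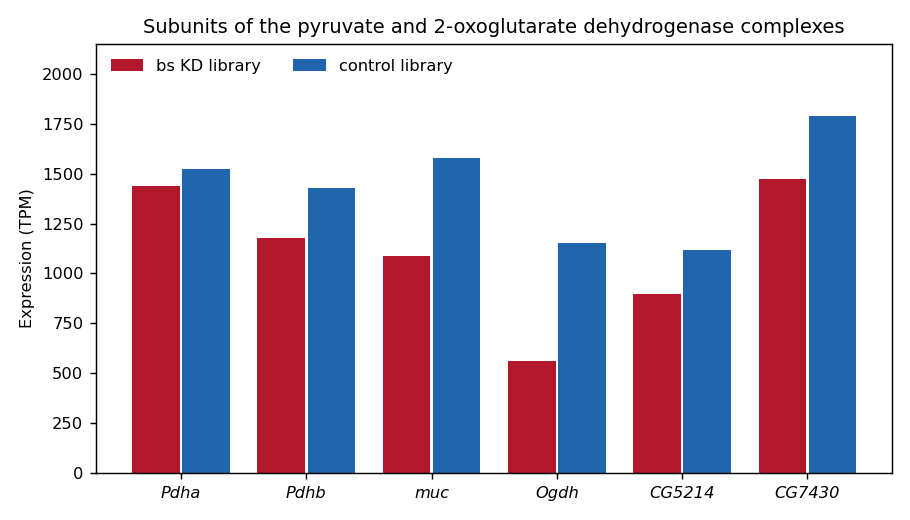
TPM of 6 subunit genes of the pyruvate and 2-oxoglutarate dehydrogenase complexes in *bs* KD (red, left bar) and control (blue, right bar), 1 library each and no error bars. All 6 are lower in *bs* KD, from 48.7% of the control level for *Ogdh* to 94.5% for *Pdha*.

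Over the list of 21 detected genes for pyruvate dehydrogenase and the TCA cycle, which holds *CG7430* and *CG5214*, 18 had at least 500 TPM in the control. None was higher by 2-fold or more and 1, *Ogdh*, was lower by that size (4.76%), near the 6.05% of all detected genes that were lower. The median log2 change of the list was −0.28, beside 0.07 for all detected genes. Next lowest was *ScsbetaA*, a subunit of succinyl-CoA ligase, at 1182 TPM in *bs* KD and 2307 TPM in the control. *Mdh2*, the mitochondrial malate dehydrogenase, stood above the control, at 3478 TPM in *bs* KD and 3187 TPM in the control. So did *Idh* (125% of the control level), *SdhC* (109%), *Idh3g* (104%) and *SdhB* (101%). Lists without an abundant numbered gene were the fatty acid and electron transfer flavoprotein list (15 detected, median −0.31, 0 higher and 1 lower by 2-fold or more), the aminotransferase list (8 detected, −0.59, 0 and 0) and the acyl-CoA binding list (3 detected, 0.85, 1 and 0). These counts stand beside 9.38% higher and 6.05% lower among all detected genes.

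*CG9399* and *CG5646* encode transport proteins of the mitochondrial inner membrane. *CG9399* (FBgn0037715; 3R, 9571911 to 9574211, minus strand) is listed by RefSeq as dMPC2, a subunit of the mitochondrial pyruvate carrier. It had 2186 TPM in *bs* KD and 2183 TPM in the control, the closest pair of values among the 13 genes, with an interval of the ratio from 0.987 to 1.01. *Mpc1*, which encodes the partner subunit, had 559.8 TPM in *bs* KD and 451.1 TPM in the control (124%). The neighbour *CG9396*, 287 bp away on the same strand, was far less abundant, with 4.20 TPM in *bs* KD and 14.2 TPM in the control.

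*CG5646* (FBgn0039525; 3R, 27559379 to 27561319, minus strand, 303 residues) is annotated as a mitochondrial transporter. It had 412.5 TPM in *bs* KD and 741.9 TPM in the control, 1.80-fold lower with an interval of 1.75 to 1.85. The 19 detected genes of the list of mitochondrial carriers and their import chaperones had a median log2 change of 0.00, with 2 higher and 2 lower by 2-fold or more (10.5% each), beside 9.38% and 6.05% of all detected genes. The most abundant carriers, *sesB* for the ADP/ATP exchanger and *Mpcp1* for phosphate, were near the control: *sesB* had 24180 TPM in *bs* KD and 22682 TPM in the control, and *Mpcp1* 10024 and 9594 TPM. *CG34132* had 214.2 TPM in *bs* KD and 51.1 TPM in the control, and *CG18324* 33.1 and 15.4 TPM. The genes lower by 2-fold were scarce, *sea* at 2.21 TPM in *bs* KD and 9.76 TPM in the control and *Dic1* at 1.54 and 6.07 TPM.

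*CG41128* (FBgn0069923) was the only one of the 13 genes higher by 2-fold or more. It lies on 3R from 3750363 to 3752353 (plus strand) and has 1 transcript of 364 bp that codes for 72 residues. RefSeq lists it as Minos1b, a relative of the MICOS subunit that shapes crista junctions. It had 1923 TPM in *bs* KD and 959.3 TPM in the control (9306 and 4610 estimated reads), or 200.5% of the control level. The interval of the ratio, 1.93 to 2.08, spans 2, so counting error alone leaves it on either side of the size used. It reached 2-fold in 3 of 7 settings of scale and pseudocount, with a log2 change between 0.85 and 1.09. The relatives *CG12479* (Minos1a) and *CG13564* (Minos1c) are listed at 0 in both libraries.

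*CG45089* (FBgn0266490; X, 7893053 to 7893798, minus strand) codes for 54 residues, the shortest protein of the 13 genes, and RefSeq lists it as an upstream open reading frame of a *CG18624* transcript. It had 985.1 TPM in *bs* KD and 583.1 TPM in the control, or 168.9% (ratio 1.63 to 1.76). It lies inside *ND-MNLL*, which encodes a complex I subunit: all 720 of its exonic bases are shared, and its 3 annotated transcripts have the same exons as 3 of the 5 of *ND-MNLL*. *ND-MNLL* had 1489 TPM in *bs* KD and 897.3 TPM in the control, or 165.9%. Reads of the pair cannot be told apart, and the levels and the change of *CG45089* are no measurement separate from those of *ND-MNLL*. Summed, the pair had 2474 TPM in *bs* KD and 1480 TPM in the control.

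*CG17734* (FBgn0037890; 3R, 11242208 to 11243999, minus strand) encodes a small protein of 95 to 106 residues with a HIG1 domain, a fold known from assembly factors of the respiratory chain. It had 536.2 TPM in *bs* KD and 545.5 TPM in the control, or 98.3% (ratio 0.953 to 1.01). It stands head to head with *CG5214*, 302 bp away on the other strand, and these are the only neighbours among the 13 genes within 1000 bp. *CG5214* was at 80.3% of the control level. In the list of ATPase inhibitor and HIG1 domain genes, 5 were detected, with a median of 0.11. Of these, *CG34423* was higher by 2-fold or more (751.0 TPM in *bs* KD and 222.9 TPM in the control) and *CG11825* lower (1.42 and 28.2 TPM). That is 20% each, beside 9.38% higher and 6.05% lower among all detected genes.

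The other 4 genes have no role that is given here. *CG43897* (FBgn0264489; 3L, 9813847 to 9834345, plus strand) has 17 annotated transcripts that code for 123 to 1385 residues, and it carries the most estimated reads of the 13 genes in *bs* KD, 156503, against 118312 in the control. Its level was 2979 TPM in *bs* KD and 2290 TPM in the control (ratio 1.29 to 1.31). *CG42319* (FBgn0259219; 2R, 13260101 to 13266336, plus strand; 6 transcripts) had 609.9 TPM in *bs* KD and 625.2 TPM in the control, with a ratio of 0.955 to 0.997. *CG43897* was thus higher and *CG42319* close to the control.

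*CG44242* (FBgn0265177; 2R, 16196384 to 16196928, plus strand) codes for 70 to 80 residues. It had 820.4 TPM in *bs* KD and 665 TPM in the control, or 123.4% (ratio 1.18 to 1.29). *Lipt1*, named after lipoyltransferase, lies 113 bp away on the same strand. *Lipt1* had 57.9 TPM in *bs* KD and 133.6 TPM in the control (43.3%). *CG42837*, at the same distance and on the same strand, had 44.7 TPM in *bs* KD and 120.4 TPM in the control (37.1%). *CG44242* and these neighbours thus stood on opposite sides of the control. Whether *Lipt1* and *CG42837* overlap each other was not examined, so their values may not be separate. *CG33199* (FBgn0053199; 2R, 8947681 to 8951086, minus strand) codes for 79 residues. It had 427.7 TPM in *bs* KD and 513.3 TPM in the control, or 83.3% (ratio 0.808 to 0.859). It shares 1091 of its 1523 exonic bases with *CG8229* on the same strand, which had 16.0 TPM in *bs* KD and 17.8 TPM in the control, and how reads were divided between them is uncertain.

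The threshold of 500 TPM cut through a continuous run of levels. Just inside it were *CG33199*, *CG17734* and *CG45089*, whose control values are given above. Just outside were *CG8520* (424.4 TPM in *bs* KD and 489.7 TPM in the control), *CG8128* (348.7 and 450.0 TPM) and *CG11413* (730.2 and 392.6 TPM).

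Several of the 13 genes code for small proteins. The longest annotated protein had fewer than 150 residues for 5 of the 13 genes (38.5%), for 34.3% of the 236 named abundant genes and for 10.6% of the detected genes with a coding transcript. The 5 are *CG41128*, *CG44242*, *CG45089*, *CG17734* and *CG33199*. The 13 genes lie on 3R (5 genes), 2R (4), 3L (2) and X (2).

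Gene length needs care in these data. The deposited table gives a length for each gene and library, and by it the 13 genes run from 167.7 bp (*CG45089*) to 1842 bp (*CG7430*) in the control, with a median of 548.5 bp, against 458.9 bp for the named abundant genes. For the 4 genes with 1 annotated transcript, *CG15617*, *CG5214*, *CG41128* and *CG5646*, the deposited length equals that of the transcript. For each of the 9 genes with several transcripts it was shorter than the shortest of them. *CG9399*, for example, is listed at 330.4 bp while its 4 annotated transcripts have 1008 to 1147 bp, and *CG43897* at 696.1 bp while its 17 have 2515 to 5929 bp.

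The length that links estimated reads to TPM can be worked out from those columns, and for all 9 genes it fell within the annotated range in both libraries. In the control it was 1101 bp for *CG9399*, 2948 bp for *CG43897*, 1844 bp for *CG3630* (listed at 578.0 bp) and 491.8 bp for *CG45089*. The median implied length was 1273 bp over the 13 genes, against 765.3 bp for the named abundant genes. By this measure the gap between the groups is wider than by the deposited length. The pattern of listed and implied lengths was the same over the table. Of 1244 genes with several annotated transcripts and at least 500 reads in the control, 1145 (92.0%) had a deposited length below their shortest transcript, against 1 of 325 genes with 1 transcript, while the implied length fell within the annotated range (with a margin of 1%) for all 1244. The implied length is worked out from reads and TPM, so its link to them is given by construction. For the 9 genes with several transcripts the listed length is not the one that links reads to TPM. For the other members, with 1 transcript, the listed and implied lengths are the same. Between the libraries the implied length moved by more than 5% for 1 of the 13 genes, *CG42319*, at 1522 bp in *bs* KD and 1618 bp in the control.

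**Figure D5:**
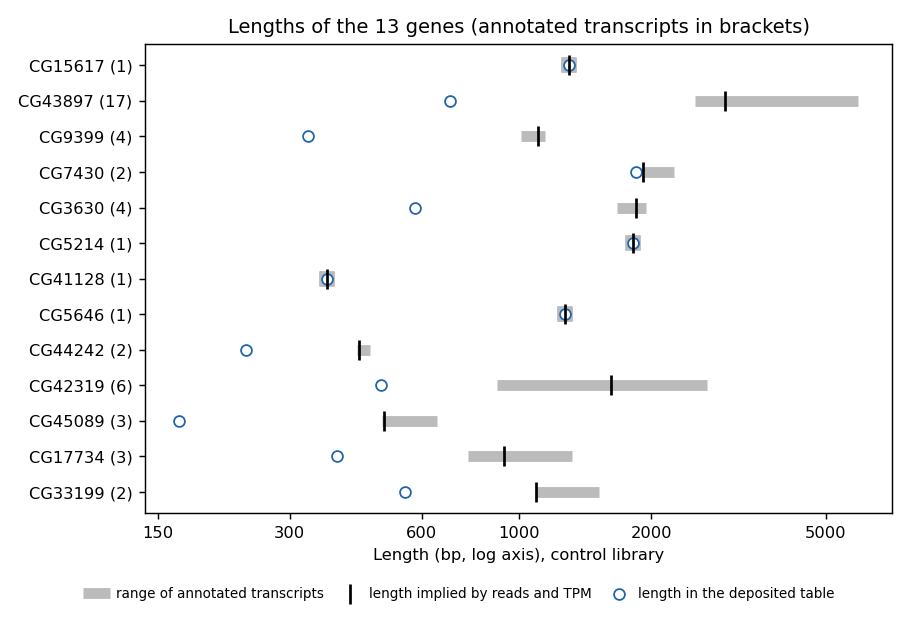
Length in bp (log axis) of the 13 genes in the control library: the range of annotated transcripts (grey), the length implied by reads and TPM (black bar) and the length in the deposited table (open blue), with the number of annotated transcripts in brackets. The open circles lie left of the grey range for all 9 genes with several transcripts, and the black bars lie within it.

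Change also varied with length over the table. By the implied length, the median log2 change of genes with at least 10 TPM in either library was 0.49 under 500 bp, 0.45 from 500 to under 1000 bp, 0.19 from 1000 to under 2000 bp and −0.18 at 2000 bp or more. By the deposited length the same classes gave 0.29, 0.29, 0.03 and −0.28. The 3 numbered genes under 500 bp by implied length (*CG41128*, *CG44242* and *CG45089*) all stood above the control, at 1.00, 0.30 and 0.76, of which the last is not separate from *ND-MNLL*. The 8 genes from 1000 to under 2000 bp had a median of −0.30, and 7 of them stood below the control, with *CG9399* the exception. *CG43897*, the longest at 2948 bp, stood above it (0.38). The part of length in the differences between the libraries was not tested.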

How the data were processed

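Polyadenylated RNA of 1 *bs* KD and 1 control library was sequenced from 1 end (100 bp). Reads were quantified by the authors with Salmon (version not given in the sources used here) against all annotated transcripts of genome release 6.21. The authors deposited, per gene, TPM values, estimated counts of reads, lengths and effective lengths. TPM sums to 1000000 in each library. The columns of the authors' own DESeq2 comparison (base mean, log2 fold change, standard error, Wald statistic, p-values) were not used. All per-sample columns were used (0 left out).

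The gene name table gave symbols (13842 of 13931 genes). Positions and transcripts came from the Ensembl 115 gene annotation (BDGP6.54), and other names from RefSeq. This annotation is later than the authors' release on the same assembly, so transcript sets may differ.

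Ratios have exact 95% Clopper-Pearson intervals from estimated reads rounded to whole numbers, scaled to TPM. The implied length is reads over TPM, scaled on genes with 1 annotated transcript and at least 500 reads, plus the 99 bp by which length exceeds effective length in them. Neighbours were genes of the table within 1000 bp. Detection required at least 1 TPM in either library. Promoter motifs and protein sequences were not analysed here.

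The members, lists and markers were chosen with earlier results of these data known. Named with values are all 13 genes, *bs*, the genes nearest the threshold and genes of the lists; partner genes, neighbours and list genes singled out were chosen after their values were seen. Alternatives covered the TPM minimum and its library, symbol source, pseudocount, scaling and fold size; leaving out *CG45089* or *CG15617* was added after seeing the data. The interval and the fold count were tested on simulated counts with planted changes well past 2-fold. Changes near 2-fold, calls among unchanged genes and the division of reads between overlapping genes were not covered by this simulation. Python 3.11.15, pandas 2.3.3 and SciPy 1.17.1 were used.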

Additional observations from a re-analysis of the deposited data

How the results depend on the processing

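No paired analysis was possible because there is 1 library per genotype, and no replicate could be left out. With a minimum of 250 TPM there were 32 genes (2.95% of control TPM), a median log2 change of −0.20 and 6 lower by 2-fold or more. With 1000 TPM there were 6 genes (1.85%), a median of −0.30 and 0 higher. With 500 TPM in both libraries, 1 gene was lower (2.08% of control TPM), and with 500 TPM in *bs* KD the median was 0.30, with 3 higher and 1 lower (2.16%). RefSeq symbols gave the same 13 genes. Median-ratio and upper-quartile scaling moved the median to −0.16 and −0.18. No gene was higher by 2-fold or more under either of these, with 5 TPM added or with TPM rescaled without the mitochondrial genome. In each case *CG41128* fell short of the size. At 1.5-fold, 2 were higher, *CG41128* and *CG45089*, of which the latter is not separate from *ND-MNLL*. Without *CG45089* the median was −0.15 (2.26% of control TPM), and without *CG15617* 1 gene was lower (1.32%). *CG15617* and *CG3630* were lower by 2-fold or more in all 7 settings of scale and pseudocount; of the 13 genes, 11 kept their sign in all 7, the exceptions being *CG9399* and *CG17734*. With no filter on low values, 9.94% of all genes were past 2-fold in either direction, against 15.4% with at least 1 TPM and 22.9% with at least 10 TPM. With 1 library per genotype, variation between flies cannot be measured.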

Other observations

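The numbered genes next in abundance included some of low level in *bs* KD. Of 19 numbered genes with 250 to under 500 TPM in the control, 4 were lower by 2-fold or more and 0 higher, with a median log2 change of −0.21. Among all 6384 detected genes 6.05% were lower and 9.38% higher by that size, and among the 236 named genes with at least 500 TPM in the control 1.27% and 0.424%. These named genes are more abundant than the 19, and named genes with 250 to under 500 TPM were not counted. *CG34211* had 6.80 TPM in *bs* KD and 256.7 TPM in the control, *CG43679* 36.6 and 384.2 TPM, *CG16826* 31.0 and 284.3 TPM, and *CG18135* 123.9 and 274.3 TPM. These genes were chosen on their control level and named after their values were seen.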
